A study of Mus musculus with 8 samples.

Results

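Interferon stimulated genes are the genes that cells switch on after interferon binds its receptor, and 37 of them were followed here in duct epithelium of the mouse and in organoids grown from it. The members were chosen by symbol, and all 37 were found among the 31228 genes of the deposited expression table. RNA came from C57BL/6 mice and was sequenced from 1 library of extrahepatic bile duct epithelium, 1 of pancreatic duct epithelium, 3 bile duct organoid cultures and 3 pancreatic duct organoid cultures. All ducts were dissected, minced and digested with collagenase IV. The epithelia went into Trizol without culture. The organoids, which are hollow epithelial structures grown in a gel matrix (Matrigel), were sequenced after 3 to 4 passages. Their medium contained EGF, R-spondin-1, Noggin, FGF10, nicotinamide, N-acetylcysteine and B27, with Wnt3A conditioned medium and Y27632 only until luminal organoids formed, and no interferon was among the listed components. The values imply 12876471 to 20828216 reads per library. No group received a treatment or carried an engineered allele. The labels do not say whether the 3 cultures of an organ came from separate animals, so p-values measure only the spread between these samples, which may be technical.

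Interferons of type I and type III signal through the kinases JAK1 and TYK2 to a transcription factor complex that contains STAT2 and IRF9 and binds the interferon stimulated response element (ISRE) in promoters. Interferon gamma, the type II interferon, signals through JAK1 and JAK2 and acts on promoters through the gamma activated sequence (GAS). The products of the induced genes detect and degrade viral RNA, block translation and virus release, modify proteins with ISG15, or attack the vacuoles of intracellular parasites. In epithelia a low level of this programme is kept up without infection, and leukocytes and endothelium in the same tissue express many of the same genes.

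The promoters of several members carry the response element in plain letters, and short stretches around it are shown for the members that the results below turn on. They come from RefSeq on mouse build GRCm38.p6, run 5′ to 3′ on the strand of the gene, and lie wholly before both the RefSeq transcription start and the gene in the deposited table. Capitals mark matches to the core of the response element, GAAA, any 2 bases and GAAA again, on either strand, where overlapping matches merge into a longer run.
Isg15, chr4:156200850-156200921, minus strand: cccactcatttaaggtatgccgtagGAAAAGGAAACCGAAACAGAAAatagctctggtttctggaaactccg
Ifit1, chr19:34640760-34640838, plus strand: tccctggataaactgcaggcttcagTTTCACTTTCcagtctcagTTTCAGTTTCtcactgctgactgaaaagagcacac
Ifit3, chr19:34583348-34583441, plus strand: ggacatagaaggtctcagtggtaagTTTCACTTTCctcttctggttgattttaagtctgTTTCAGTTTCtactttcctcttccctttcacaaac
Igtp, chr11:58199497-58199555, plus strand: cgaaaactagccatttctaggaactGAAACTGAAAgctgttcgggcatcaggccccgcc
Oas1a, chr5:120907526-120907570, minus strand: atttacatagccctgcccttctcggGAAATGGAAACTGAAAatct
Bst2, chr8:71537562-71537627, minus strand: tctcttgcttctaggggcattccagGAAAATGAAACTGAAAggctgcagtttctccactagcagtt

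For Gbp2, Gbp3, Irgm1 and Apobec3 the stretch around the match overlaps the gene as the deposited table places it, and it is not shown. Isg15 and Ifit3 show 3 and 2 matches, and the pair of matches in Ifit1 lies on the opposite strand to the gene. RefSeq windows of 250 bases before to 50 after the start were at hand for 27 of the 37 members. The core was found in 16 of these 27 (59.3%), against 3.99% of the 27025 genes with a window. Counted by window, it was in 50.0% of the members' windows and 3.44% of all windows of the same length. The GAS letters TTCNNNGAA, searched on both strands, were in 6 of the 27 members (22.2%) and in 9.55% of all genes. Oas1a, Bst2 and Igtp held both motifs (11.1% of members, 0.614% of genes), and in Bst2 the matches overlap. Neither motif was in the windows of 8 members, Irf7, Irf9, Oasl1, Oasl2, Ifi44, Xaf1, Cmpk2 and Trim25. A match here is a run of letters and not a measured binding site.

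Both epithelia carried the programme at a clear level, and the organoids carried much less of it. Expression is given as FPKM, which corrects read numbers for the length of a gene and the depth of a library, as deposited. Summed over the 37 members, it was 783 FPKM in the bile duct epithelium and 665 in the pancreatic one. Bile duct organoids 1, 2 and 3 summed to 294, 106 and 116, and pancreatic duct organoids 1, 2 and 3 to 141, 184 and 117. The median member stood at 13.8 FPKM in the bile duct epithelium and 13.5 in the pancreatic one. In the organoids the median member was at 3.20, 0.331 and 0.431 for bile duct and at 0.555, 1.68 and 0.60 for pancreatic duct. Members with at least 1 FPKM numbered 37 and 36 in the epithelia, 34, 13 and 14 in the bile duct organoids, and 16, 26 and 16 in the pancreatic duct organoids. Bile duct organoid 1 and, below it, pancreatic duct organoid 2 thus kept more of the programme than the other 4 cultures. In 33 of the 37 members both epithelia lay above all 6 organoids, an order seen in 27.9% of the 16541 genes with at least 1 FPKM in a library. The other 4 were Oas3, Rsad2, Trim25 and Apobec3. In whole tissue RNA, fewer cells of a type and less RNA per cell cannot be told apart.

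**Figure D1:**
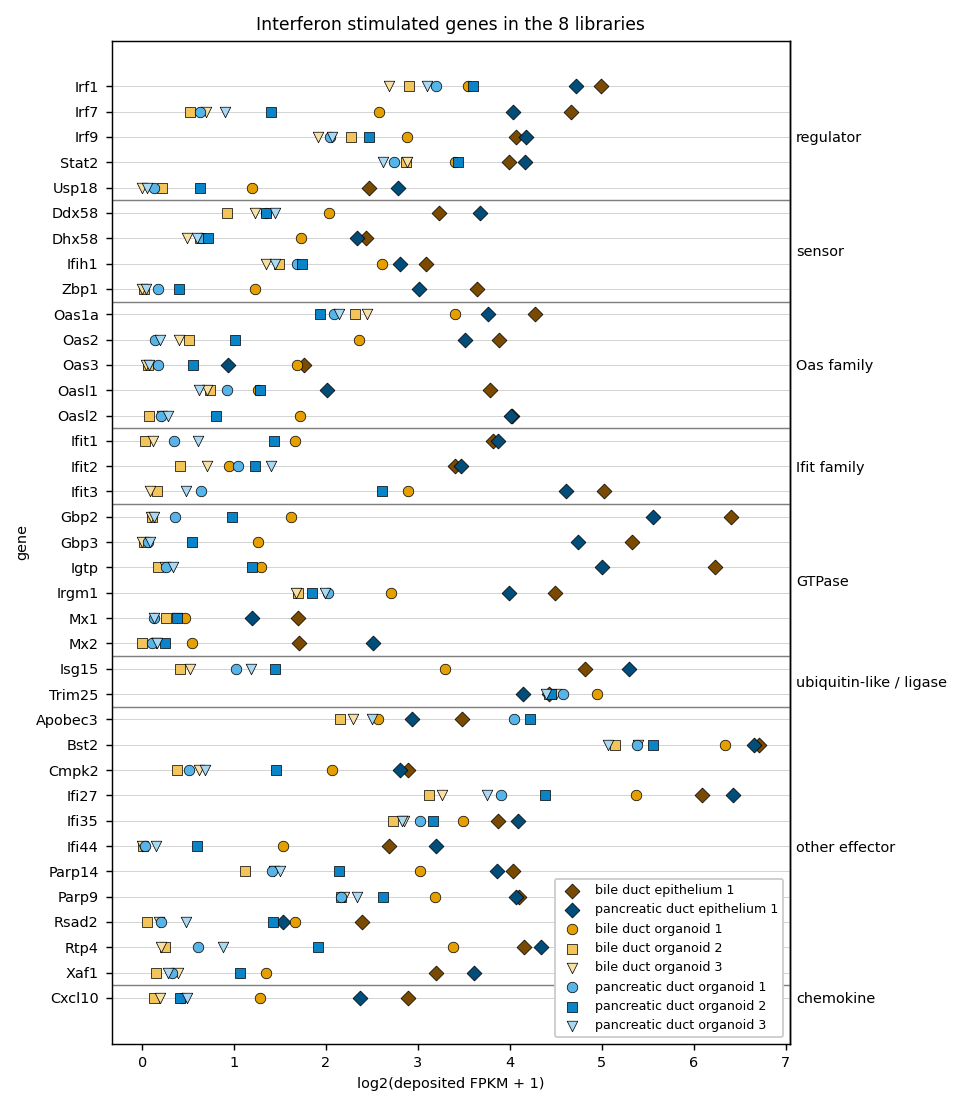
Level of each member on log2(deposited FPKM + 1) along the horizontal axis, with 1 symbol per library and the members in rows grouped by role. The diamonds of both epithelia lie to the right of all 6 organoids in 33 of the 37 rows, and bile duct organoid 1 (orange circle) is the highest organoid in 32.

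Markers of leukocytes, endothelium, fibroblasts and acinar cells were plentiful in the epithelial libraries and scarce in the organoids. A list of 15 leukocyte markers summed to 560 FPKM in the bile duct epithelium and 448 in the pancreatic one, and to between 3.14 and 15.2 in the organoids. The leukocyte antigen gene Ptprc had 4.86 and 5.44 FPKM in the epithelia. Of the 15 markers, 4 to 7 were listed at 0 in each organoid and none in the epithelia. The 8 endothelial markers summed to 382 and 715 FPKM in the epithelia and to between 1.73 and 4.39 in the organoids. The 7 fibroblast markers summed to 1232 and 1405 against 0.268 to 3.06. The 6 acinar enzyme genes summed to 15006 FPKM in the bile duct epithelium and 29900 in the pancreatic one, and to at most 8.17 in an organoid. The 11 duct epithelial markers were above 0 in every library and summed to 2821 and 669 in the epithelia and to between 5651 and 11458 in the organoids. The 5 intestinal absorptive markers summed to 266 and 11.5 FPKM in the epithelia and to 51.0 to 106 in the organoids, where nearly all of it was Vil1. Fabp2 and Alpi, at 96.0 and 94.6 FPKM in the bile duct epithelium, had at most 0.740 and 0.0833 in an organoid. Apoa4 and Sis were listed at 0 in every organoid. The 4 plasmacytoid dendritic cell markers were low throughout, at 2.28 and 1.52 FPKM in the epithelia and at most 0.242 in an organoid. The part of these other cells in the members' levels was not tested.

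**Figure D2:**
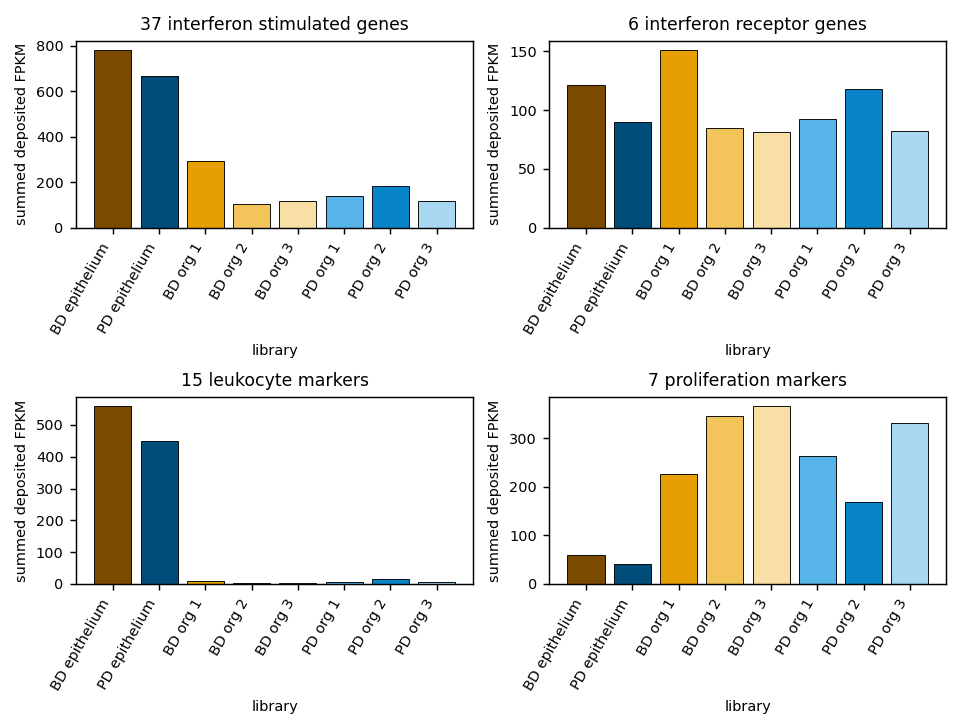
Bars show summed deposited FPKM in each of the 8 libraries (BD, bile duct; PD, pancreatic duct; org, organoid) for the 37 members, 6 interferon receptor genes, 15 leukocyte markers and 7 proliferation markers. The members and the leukocyte markers are highest in the epithelia, and bile duct organoid 1 and pancreatic duct organoid 2 have the highest receptor sums and the lowest proliferation sums among the organoids.

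The next comparison asks how far expression in the organoids lies from the epithelium they were grown from. All 8 libraries were scaled together by a trimmed mean of log ratios, and differences were taken on log2(scaled FPKM + 1). A member counted as lower when the mean difference was at least 2-fold and all 3 cultures lay below the epithelium. With 1 library per epithelium these differences have no replicate check on that side and no p-value, and an SD is over the 3 organoids. By this rule 36 of 37 members were lower in bile duct organoids, where 26.1% of 15227 genes were lower, and none was higher, against 12.7% of genes. Of the 36 members above the floor of 1 FPKM in pancreatic duct, 34 were lower, where 25.1% of 14984 genes were lower, and none was higher, against 15.2%. Genes passed at 1 FPKM in the epithelium or in the organoid mean. Gbp2, Gbp3 and Igtp, with bile duct organoid means of 0.74, 0.469 and 0.585 FPKM, were among the members that passed through the epithelium alone. Such members could be called lower but not higher. With any read in place of the floor, 36 and 34 of the 37 were lower, against 14.8% and 14.1% of genes. The median member differed by -2.34 in the bile duct comparison and -2.43 in the pancreatic one, on the log2 scale, and the median over all genes was -0.07 and -0.06. The scaling itself shifted organoids against epithelium by -0.27 (bile duct) and -0.30 (pancreatic duct). With deposited FPKM left unscaled, 34 and 32 members were lower.

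**Figure D3:**
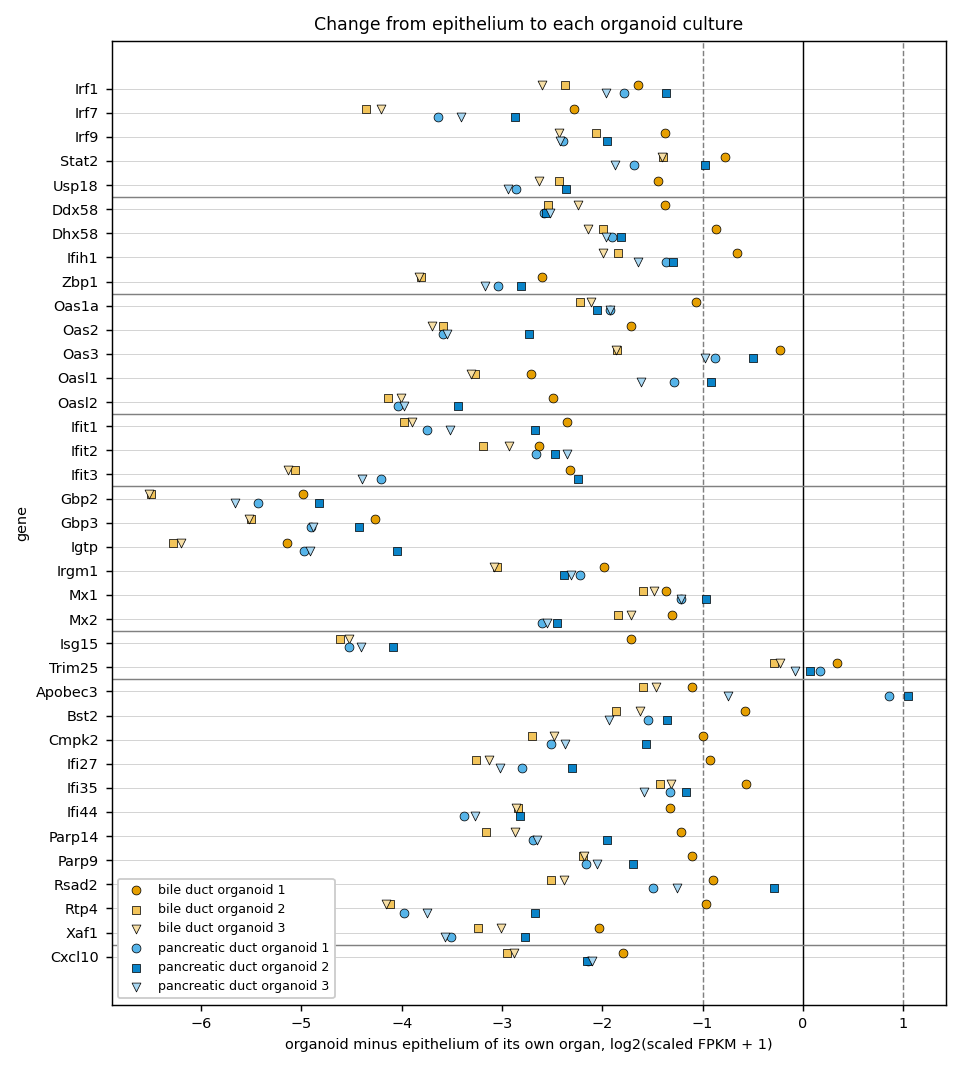
Organoid minus epithelium difference of each member on log2(scaled FPKM + 1), with 1 symbol per culture, a solid line at 0 and dashed lines at 2-fold. Gbp2, Gbp3 and Igtp lie furthest below 0, and Trim25 lies near 0 in both organs.

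The 3 widest differences in each organ belonged to Gbp2, Gbp3 and Igtp, GTPases that act on the vacuoles of intracellular parasites and are classically induced by interferon gamma. Gbp2 (ENSMUSG00000028270, chromosome 3, 142620602 to 142638008), a guanylate binding protein, had 83.6 FPKM in the bile duct epithelium and 46.2 in the pancreatic one. It had 2.08, 0.0795 and 0.0648 in bile duct organoids 1, 2 and 3 and 0.284, 0.971 and 0.0954 in pancreatic duct organoids 1, 2 and 3. Every organoid lay far below both epithelia. The difference was -6.00 ± 0.88 for bile duct and -5.31 ± 0.44 for pancreatic duct (SD, n = 3, log2), and on deposited FPKM the epithelium was 113-fold and 103-fold above the organoid mean. Its neighbour Gbp3 (ENSMUSG00000028268, chromosome 3, 142560026 to 142573209) had 39.2 and 25.7 FPKM in the epithelia. In bile duct organoids it had 1.39, 0.0153 and 0, and in pancreatic duct organoids 0.0398, 0.453 and 0.0588. The listed 0 in bile duct organoid 3 allows up to 0.05 FPKM, the value of 3 reads, for counting error only. Differences of -5.10 ± 0.72 and -4.74 ± 0.27 followed for the 2 organs.

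Igtp (ENSMUSG00000078853, chromosome 11, 58199556 to 58207591), an immunity related GTPase, had 74.5 FPKM in the bile duct epithelium and 31.0 in the pancreatic one. Bile duct organoids had 1.44, 0.124 and 0.188, and pancreatic duct organoids 0.193, 1.29 and 0.261. The differences of Igtp were -5.88 ± 0.63 and -4.65 ± 0.52. Igtp overlaps Irgm2 on the same strand and shares 11.8% of its 50-base stretches with it, so its value is uncertain to that extent. Irgm1 (ENSMUSG00000046879, chromosome 11, 48861968 to 48871683), which also regulates autophagy, kept a larger part of its level. It had 21.5 and 14.9 FPKM in the epithelia, 5.53, 2.25 and 2.2 in bile duct organoids, and 3.06, 2.59 and 2.97 in pancreatic duct organoids. Its differences were -2.71 ± 0.63 and -2.31 ± 0.08. Mx1 and Mx2, of a family of dynamin-like GTPases that trap viral nucleocapsids, stayed under 10 FPKM in every library. Mx2 is classed as a polymorphic pseudogene in the deposited table, and whether these mice make working Mx proteins was not tested. Mx1 had 2.24 and 1.30 FPKM in the epithelia and at most 0.385 in an organoid, and Mx2 had 2.26 and 4.69 and at most 0.450. All 6 GTPases were lower in both organs, with a median of -3.90 (bile duct) and -3.59 (pancreatic duct).

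Ifit1, Ifit2 and Ifit3, a cluster on chromosome 19 whose products bind viral RNA, had a median of -3.41 (bile duct) and -3.31 (pancreatic duct). Ifit3 (ENSMUSG00000074896, 34583531 to 34588731) had 31.5 FPKM in the bile duct epithelium and 23.4 in the pancreatic one. It had 6.43, 0.115 and 0.0623 in bile duct organoids and 0.558, 5.11 and 0.385 in pancreatic duct organoids. Bile duct organoid 1 and pancreatic duct organoid 2 were the 2 high cultures, with 200 and 157 reads, and the other 4 had 2 to 15. Ifit1 (ENSMUSG00000034459, 34640871 to 34650009) had 13.1 and 13.6 FPKM in the epithelia. The same cultures were high for Ifit1, at 2.16, 0.0188 and 0.0819 in bile duct organoids and 0.269, 1.69 and 0.524 in pancreatic duct organoids. Ifit2 (ENSMUSG00000045932, 34550694 to 34576419) had 9.55 and 10.0 FPKM in the epithelia, 0.929, 0.331 and 0.623 in bile duct organoids, and 1.06, 1.33 and 1.64 in pancreatic duct organoids. Ifit2 did not follow the pattern, since its highest culture was pancreatic duct organoid 3. The differences were -3.41 and -3.31 for Ifit1, -2.92 and -2.49 for Ifit2, and -4.18 ± 1.60 and -3.62 ± 1.19 for Ifit3. Ifit3 shares 51.2% of its 50-base stretches with Ifit3b, and its value is uncertain to that extent.

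The oligoadenylate synthetases, which make the messenger that activates RNase L, were unequal. Oas1a (ENSMUSG00000052776, chromosome 5, 120896256 to 120907521) had 18.3 FPKM in the bile duct epithelium and 12.5 in the pancreatic one. It had 9.56, 3.98 and 4.44 in bile duct organoids and 3.24, 2.83 and 3.41 in pancreatic duct organoids, so the organoids retained it at a measurable level. The difference was -1.80 ± 0.64 for bile duct and -1.97 ± 0.07 for pancreatic duct, and 57.6% of its 50-base stretches are shared with Oas1g. Oas2 (ENSMUSG00000032690, chromosome 5, 120730333 to 120749853) had 13.8 and 10.4 FPKM in the epithelia. Only bile duct organoid 1 (4.12 FPKM) and pancreatic duct organoid 2 (1.01) exceeded 1 FPKM, and the others had between 0.102 and 0.427. The difference of Oas2 was -3.00 ± 1.11 and -3.29 ± 0.48. Oasl2 (ENSMUSG00000029561, chromosome 5, 114896936 to 114912234), a relative with ubiquitin-like domains, had 15.2 FPKM in each epithelium, 2.28 in bile duct organoid 1, 0.749 in pancreatic duct organoid 2 and between 0.0549 and 0.211 elsewhere. Oasl1 (ENSMUSG00000041827, chromosome 5, 114923240 to 114937915), which limits translation of Irf7, had 12.8 FPKM in the bile duct epithelium, 3.03 in the pancreatic one and 0.534 to 1.44 in the organoids. Oas3 had 2.39 and 0.906 FPKM in the epithelia, 2.21 in bile duct organoid 1 and at most 0.466 in the others, and it did not pass the floor in pancreatic duct. The family was lower in 5 of 5 members in bile duct and in 4 of the 5 in pancreatic duct.

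The regulators of the response had medians of -2.17 for bile duct and -2.26 for pancreatic duct. Irf7 (ENSMUSG00000025498, chromosome 7, 141262706 to 141266481), which amplifies interferon production, had 24.3 FPKM in the bile duct epithelium and 15.4 in the pancreatic one. Organoids had 4.95, 0.437 and 0.619 for bile duct and 0.550, 1.64 and 0.865 for pancreatic duct. The differences were -3.62 ± 1.16 and -3.30 ± 0.40. Irf1 (ENSMUSG00000018899, chromosome 11, 53770014 to 53778374), a transcription factor induced early in the response, had 30.8 and 25.3 FPKM in the epithelia, 10.7, 6.47 and 5.43 in bile duct organoids and 8.18, 11.1 and 7.54 in pancreatic duct organoids. Its differences were -2.20 and -1.70. Irf9 (ENSMUSG00000002325, chromosome 14, 55603571 to 55610030), the DNA binding part of the complex, had 15.8 and 17.1 FPKM in the epithelia and 2.76 to 6.39 in the organoids. Stat2 (ENSMUSG00000040033, chromosome 10, 128270559 to 128292849), its partner, had 14.9 and 17.0 FPKM in the epithelia and 5.13 to 9.80 in the organoids. Stat2 was the member of this group with the smallest difference, at -1.19 ± 0.36 for bile duct and -1.51 ± 0.47 for pancreatic duct. Usp18, the protease that removes ISG15 and dampens the receptor, had 4.54 and 5.89 FPKM in the epithelia, 1.29 in bile duct organoid 1 and at most 0.550 in the others. All 5 regulators were lower in both organs. Irf7 overlaps Phrf1 on the opposite strand and Irf9 overlaps Rnf31. The kit described does not mark strand and the counting setting is not given in the sources used here, so reads of such pairs cannot be told apart.

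The 4 sensors of foreign nucleic acid were also lower in both organs. Ddx58 (ENSMUSG00000040296, chromosome 4, 40203773 to 40239828), which encodes the RNA sensor RIG-I, had 8.37 and 11.8 FPKM in the epithelia. It had 3.10, 0.887 and 1.34 in bile duct organoids and 1.54, 1.55 and 1.72 in pancreatic duct organoids, a difference of -2.05 ± 0.60 and -2.55 ± 0.03. Ifih1, which encodes the sensor of long RNA MDA5, had 7.50 and 6.01 FPKM in the epithelia and 1.54 to 5.11 in the organoids. Dhx58, a regulator of both, had 4.39 and 4.03 FPKM in the epithelia, 2.32 in bile duct organoid 1 and 0.399 to 0.643 in the others. Zbp1 (ENSMUSG00000027514, chromosome 2, 173206612 to 173218923), a Z-nucleic acid sensor that triggers necroptosis, had 11.5 FPKM in the bile duct epithelium and 7.04 in the pancreatic one. Its organoid values were 1.34, 0.0142 and 0 for bile duct and 0.129, 0.322 and 0.0272 for pancreatic duct. Zbp1 was therefore above 1 FPKM in a single culture, bile duct organoid 1, and its differences were -3.41 ± 0.70 and -3.01 ± 0.18.

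Isg15 (ENSMUSG00000035692, chromosome 4, 156199424 to 156200818), a ubiquitin-like protein that is attached to other proteins, had 27.1 FPKM in the bile duct epithelium and 38.3 in the pancreatic one. It had 8.84, 0.331 and 0.431 in bile duct organoids and 1.03, 1.73 and 1.27 in pancreatic duct organoids. Bile duct organoid 1 (119 reads) stood above every other culture, and bile duct organoids 2 and 3 rested on 5 and 6 reads. The difference was -3.62 ± 1.65 for bile duct and -4.34 ± 0.22 for pancreatic duct. Rtp4 (ENSMUSG00000033355, chromosome 16, 23520291 to 23614222), a chaperone for G protein coupled receptors that also restricts viruses, had 16.8 and 19.3 FPKM in the epithelia. Its organoid values were 9.43, 0.188 and 0.153 for bile duct and 0.518, 2.77 and 0.834 for pancreatic duct. Bile duct organoid 1 was thus far above the other bile duct cultures for Rtp4, and the difference was -3.08 ± 1.83 in that organ and -3.46 ± 0.70 in the other. Rtp4 overlaps Masp1 on the opposite strand.

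Some effectors kept high levels in the organoids. Bst2 (ENSMUSG00000046718, chromosome 8, 71534255 to 71537456), or tetherin, which holds budding virus at the cell surface, had 104 and 99.8 FPKM in the epithelia. It had 79.9, 34.4 and 41.2 in bile duct organoids and 40.9, 46.1 and 32.6 in pancreatic duct organoids, and differed by -1.35 ± 0.68 and -1.61 ± 0.30. Ifi27 (ENSMUSG00000064215, chromosome 12, 103434211 to 103440239), a small mitochondrial protein, had 67.4 and 85.2 FPKM in the epithelia. In bile duct organoids it had 40.4, 7.67 and 8.6, and in pancreatic duct organoids 13.9, 19.8 and 12.5. The difference of Ifi27 was -2.44 ± 1.32 and -2.71 ± 0.37, with the wider spread in the bile duct cultures. Ifi35 (ENSMUSG00000010358, chromosome 11, 101448407 to 101458698) had 13.7 and 16.0 FPKM in the epithelia and 5.62 to 10.3 in the organoids. Xaf1 (ENSMUSG00000040483, chromosome 11, 72301629 to 72313733), a pro-apoptotic protein, had 8.17 and 11.2 FPKM in the epithelia and 0.107 to 1.53 in the organoids. Parp9 (ENSMUSG00000022906, chromosome 16, 35938470 to 35972605) and Parp14 (ENSMUSG00000034422, chromosome 16, 35832874 to 35871544), ADP-ribosyltransferases of the response, had 13.5 to 16.1 FPKM in the epithelia. Parp9 had 3.49 to 8.08 FPKM in the organoids and Parp14 had 1.17 to 7.11, both with bile duct organoid 1 on top. Parp9 overlaps Dtx3l on the opposite strand, which had 11.4 and 9.53 FPKM in the epithelia and 3.54 to 7.51 in the organoids, and reads of this pair cannot be told apart. Counted with Rtp4, Rsad2, Ifi44, Cmpk2 and Apobec3, Bst2, Ifi27, Ifi35, Xaf1, Parp9 and Parp14 make 11 effectors, of which 11 were lower in bile duct and 10 in pancreatic duct, with medians of -2.06 and -2.15.

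Of the weakly expressed effectors, Rsad2, which encodes viperin, had 4.25 and 1.90 FPKM in the epithelia, 2.16 in bile duct organoid 1, 1.68 in pancreatic duct organoid 2 and 0.0346 to 0.388 in the rest. Ifi44 had 5.44 and 8.18 FPKM in the epithelia, 1.90 in bile duct organoid 1 and at most 0.510 in the others. Cmpk2, a mitochondrial nucleotide kinase that neighbours Rsad2, had 6.40 and 5.98 FPKM in the epithelia and 0.30 to 3.20 in the organoids. Cxcl10, the chemokine that draws T cells, had 6.41 and 4.17 FPKM in the epithelia, 1.42 in bile duct organoid 1 and 0.0889 to 0.405 in the rest, a difference of -2.54 ± 0.65 and -2.13 ± 0.03. Cxcl10 overlaps Art3 on the opposite strand. Art3 itself had 19.6 and 16.1 FPKM in the epithelia and at most 0.0415 in an organoid, and reads of this pair cannot be told apart.

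Trim25 and Apobec3 were the exceptions. Trim25 (ENSMUSG00000000275, chromosome 11, 88999376 to 89020293), the ubiquitin ligase that activates RIG-I, had 20.4 FPKM in the bile duct epithelium and 16.6 in the pancreatic one. It had 30.0, 20.5 and 21.7 in bile duct organoids and 22.9, 20.9 and 20.1 in pancreatic duct organoids. The difference was -0.06 ± 0.34 for bile duct and 0.05 ± 0.13 for pancreatic duct, and with deposited FPKM left unscaled the bile duct value became 0.20. Apobec3 (ENSMUSG00000009585, chromosome 15, 79891659 to 79915906), a cytidine deaminase that restricts retroviruses, had 10.1 FPKM in the bile duct epithelium and 6.67 in the pancreatic one. It had 4.90, 3.43 and 3.90 in bile duct organoids and 15.6, 17.7 and 4.64 in pancreatic duct organoids. Pancreatic duct organoids 1 and 2 were above their epithelium, by 0.86 and 1.05 on the log2 scale, and organoid 3 was below it, at -0.75. In bile duct the difference was -1.39 ± 0.25. Apobec3 overlaps Cbx7 on the opposite strand, and its read numbers did not come out whole.

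Across single cultures, bile duct organoid 1 lay closest to its epithelium. Its median member differed from bile duct epithelium by -1.38, and 26 of 37 members were at least 2-fold lower, against 25.5% of genes. Bile duct organoids 2 and 3 had medians of -2.85 and -2.86, with 36 members lower in each, against 27.1% and 27.5% of genes. Pancreatic duct organoids 1, 2 and 3 had medians of -2.58, -2.24 and -2.42, with 34, 30 and 34 members lower, against 26.7%, 24.4% and 26.0% of genes. Without bile duct organoid 1, the bile duct median became -2.85.

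The 6 organoids did not share a level of the programme. Bile duct organoid 1 was the highest of the 6 in 32 of 37 members, where it was the highest in 13.1% of the 26795 genes with a read in any organoid. Pancreatic duct organoid 2 came next in 26 of these 32, an order found in 5.02% of genes. In 8 members bile duct organoid 1 exceeded every other culture at least 2-fold on log2(scaled FPKM + 1), against 0.22% of genes. Its FPKM over that of the next culture was 5.11 for Isg15, 4.09 for Oas2, 3.40 for Rtp4 and 3.02 for Irf7. The 5 members whose highest culture was another were Ifit2, Irf1, Stat2, Oasl1 and Apobec3, and pancreatic duct organoid 2 was the highest for the last 4 of them. With bile duct organoid 1 set aside, pancreatic duct organoid 2 was the highest of the other 5 in 30 of 37 members, against 23.4% of genes. Within pancreatic duct it exceeded the higher of the other 2 cultures 9.17-fold for Ifit3, 7.70-fold for Gbp3 and 4.95-fold for Igtp.

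As a deviation from the mean of the 6 organoids on log2(scaled FPKM + 1), the median member was at 0.95 in bile duct organoid 1 and at 0.25 in pancreatic duct organoid 2. It was at -0.37 and -0.35 in bile duct organoids 2 and 3 and at -0.24 and -0.27 in pancreatic duct organoids 1 and 3. Of the 37 members, 36 were above their own mean in bile duct organoid 1 and 31 in pancreatic duct organoid 2, against 0 to 7 in the other 4. The SD over the 6 organoids had a median of 0.51 over the members and of 0.14 over all genes with a read in an organoid. Without bile duct organoid 1 the median over the members was 0.29, and with a pseudocount of 0.1 it was 1.06. Over the 16 members that reached 1 FPKM in 3 or more organoids the median SD was 0.42, against 0.21 over all 12106 such genes. The same cultures had the lowest sums of the proliferation markers, a list of 7 genes. These summed to 228 FPKM in bile duct organoid 1 and 170 in pancreatic duct organoid 2 and to between 265 and 367 in the other 4. Mki67 was at 23.6 and 18.5 FPKM in these cultures and at 31.2 to 66.8 in the rest. For Top2a, however, bile duct organoid 1 (44.6 FPKM) lay above pancreatic duct organoid 1 (43.0). Leukocyte markers summed to 9.21 FPKM in bile duct organoid 1 and 15.2 in pancreatic duct organoid 2, against 3.14 to 7.32. Cd68 and Ccl5 made up most of these sums, with 4.56 and 3.39 FPKM in bile duct organoid 1 and 10.9 and 1.89 in pancreatic duct organoid 2. The defining marker Ptprc was at 0.00307 and 0.00621 FPKM in these cultures, Cd52 and Itgam were listed at 0 in both, and Lyz2 had 0.341 and 0.734 FPKM. Of the 14 markers with a read in an organoid, 1 was highest in bile duct organoid 1 (Ccl5), against 13.1% of genes. Highest in pancreatic duct organoid 2 were 3 (Cd68, Fcer1g and Cd79a), against 18.0% of genes. Csf1r, at 0.529 and 1.01 FPKM in these cultures, was highest in pancreatic duct organoid 1. The part of growth or of other cells in the spread between cultures was not tested.

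**Figure D4:**
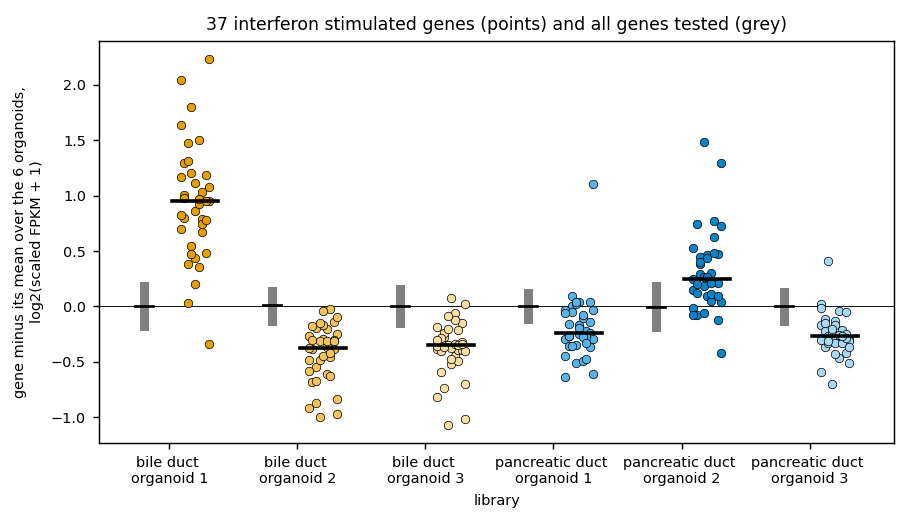
Deviation of each member in each of the 6 organoids from its mean over them, on log2(scaled FPKM + 1), with 1 point per member and a black bar at their median, beside a grey bar for the interquartile range of all genes tested. The median of the members is 0.95 in bile duct organoid 1 and 0.25 in pancreatic duct organoid 2 and below 0 in the other 4 cultures.

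Bile duct organoids were then set against pancreatic duct organoids with limma on log2(scaled FPKM + 1), and Benjamini-Hochberg adjustment ran over all 12106 genes tested. Of the 37 members, 16 passed the filter of 1 FPKM in at least 3 organoids and 21 did not. No member passed an adjusted p of 0.05 with limma, where 0.0% of genes passed, and 2 had an unadjusted p under 0.05, against 2.52% of genes. With voom, the limma fit on read numbers, 0 of 15 members passed and 1 had an unadjusted p under 0.05, against 0 and 244 of 10284 genes. Ifit2 differed by -0.53 (bile duct minus pancreatic duct, SE 0.21, unadjusted p = 0.0424, adjusted p = 1.00 with limma) and was lower in all 3 bile duct cultures. It passed the filter only through the pancreatic duct cultures, all above 1 FPKM where all bile duct cultures were below it, so its separation was in part selected and its place in these counts supports nothing. The Ifit2 difference was -1.05 with a pseudocount of 0.1 and -1.23 with voom, and its unadjusted p was 0.0803 in limma with the replicate number as a block. Apobec3 differed by -1.25 (SE 0.48, unadjusted p = 0.0396, adjusted p = 1.00 with limma), and the groups overlapped, with pancreatic duct organoid 3 below bile duct organoid 1. Isg15 differed by 0.21 (SE 0.79, adjusted p = 1.00 with limma), and without bile duct organoid 1 by -0.77. Oas1a was higher in all 3 bile duct cultures than in any pancreatic duct culture, by 0.67 (SE 0.32, adjusted p = 1.00 with limma), and without bile duct organoid 1 by 0.30. Besides Ifit2, Oas1a was the only member of the 16 whose groups did not overlap, where 6.37% of all genes tested did not.

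The direction of the organ difference rested on bile duct organoid 1. The median over the 37 members was 0.15 towards bile duct, against 0.00 over all 26795 genes with a read in an organoid, both without a filter. Over the 16 members tested it was 0.13, against 0.01 over the 12106 genes tested. Without that culture the median over the 37 members was -0.29, towards pancreatic duct. Fitted without a filter, 28 members were higher in bile duct and 9 in pancreatic duct, and without bile duct organoid 1 these counts were 2 and 35, with no member passing the adjusted threshold in limma in either fit.

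The epithelia of bile duct and pancreatic duct were compared with 1 library each and hence no test. The median member differed by 0.15 (bile duct minus pancreatic duct, log2), against -0.04 over all genes. Oasl1 (difference 1.78) and Igtp (1.21) were at least 2-fold higher in bile duct, where 9.08% of 15092 genes were higher, and no member was at least 2-fold lower, against 4.64%. With a pseudocount of 0.1, 4 members were higher and 1 lower, against 12.1% and 7.04% of genes. Gbp2 differed by 0.81, Rsad2 by 0.87, Zbp1 by 0.62, Irf7 by 0.60 and Gbp3 by 0.56, all towards bile duct. Mx2 differed by -0.86 and Isg15 by -0.52, towards pancreatic duct. Differences of Oasl2, Bst2 and Parp9 were near 0 and changed sign with the scaling. The epithelia differed in the other cells they held, with the leukocyte sum higher in bile duct and the endothelial and acinar sums higher in pancreatic duct, and the intestinal sum higher in bile duct, and the part of this in the members' differences was not tested.

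The wider pathway was read from lists of the other interferon genes. Of 12 ligand genes, 6 were in the table and none reached 1 FPKM in a library. Ifng, made by T and NK cells, had 0.660 FPKM in the bile duct epithelium and 0.050 in the pancreatic one and was listed at 0 in all 6 organoids. Ifnb1 was listed at 0 in all 8 libraries. The 6 receptor chains summed to 122 and 90.3 FPKM in the epithelia, 151, 84.8 and 81.2 in bile duct organoids, and 92.7, 118 and 81.9 in pancreatic duct organoids. By the 2-fold rule, 1 of the 6 was lower in bile duct (Il10rb, by -1.03) and none in pancreatic duct, against 26.1% and 25.1% of all genes. Of the 6, 5 were highest in bile duct organoid 1, against 13.1% of genes.

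Ifnar1, a chain of the type I receptor, had 11.3 and 11.2 FPKM in the epithelia, 22.7, 12.9 and 11.8 in bile duct organoids and 14.3, 21.8 and 14.1 in pancreatic duct organoids. Ifngr2, a chain of the interferon gamma receptor, had 20.9 and 10.6 in the epithelia, 40.1, 19.6 and 23.0 in bile duct organoids and 24.0, 31.8 and 24.6 in pancreatic duct organoids. The same 2 cultures were the highest for both chains. Ifnlr1, the type III receptor chain that limits this interferon to epithelia, went otherwise, with 1.24 and 0.913 FPKM in the epithelia, 3.07, 3.78 and 3.83 in bile duct organoids and 2.70, 2.27 and 3.64 in pancreatic duct organoids.

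Among the 12 signal carriers, 4 were lower in each organ and none was higher. Over all genes, 26.1% and 25.1% were lower and 12.7% and 15.2% higher. Of the 12, 6 were highest in bile duct organoid 1, against 13.1% of all genes. Between the organoid groups 0 of 11 tested passed the limma threshold, with 0 at an unadjusted p under 0.05, against 0.0% and 2.52% of genes tested. Jak1 had 29.3 and 26.5 FPKM in the epithelia and 22.3 to 30.8 in the organoids. Socs3, a feedback inhibitor of JAK kinases, had 87.3 and 170 FPKM in the epithelia, 12.8 to 13.5 in bile duct organoids and 10.4, 31.2 and 17.1 in pancreatic duct organoids, a difference of -2.91 and -3.48.

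Of the 12 further sensors and adaptors, 5 were lower and 2 higher in each organ. Over all genes, 26.1% and 25.1% were lower and 12.7% and 15.2% higher. Of 9 tested between the organoid groups, 0 passed the limma threshold and 0 had an unadjusted p under 0.05, against 0.0% and 2.52% of genes tested. Tmem173, which encodes STING, had 16.1 and 15.9 FPKM in the epithelia, 16.9, 3.85 and 4.18 in bile duct organoids and 4.85, 12.7 and 8.59 in pancreatic duct organoids. Tmem173 was highest in bile duct organoid 1 and next in pancreatic duct organoid 2. Of the 12 genes, 3 were highest in bile duct organoid 1, against 13.1% of all genes. Myd88, the adaptor of most Toll-like receptors, had its lowest value there, at 7.65 FPKM, against 12.8 and 11.1 in the other bile duct organoids and 9.88, 8.25 and 12.7 in pancreatic duct organoids. Ikbke, a kinase that phosphorylates IRF factors, was higher in organoids, with 2.89 and 2.25 FPKM in the epithelia, 14.9, 9.44 and 9.08 in bile duct organoids and 8.89, 10.3 and 6.71 in pancreatic duct organoids.

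A list of 49 other interferon responsive genes was also mostly lower in the organoids. In bile duct organoids 38 of 48 were lower (median -2.20) and in pancreatic duct organoids 37 of 47 (median -2.07), where 26.1% and 25.1% of all genes were lower. None was higher, against 12.7% and 15.2% of genes, and those that passed the floor through the epithelium alone could only be lower. Of the 48 with a read in an organoid, 38 were highest in bile duct organoid 1, against 13.1% of genes. The ISRE core was in 46.2% of the 39 genes with a window, against 3.99% of all genes. Ifitm3, which blocks virus entry, had 359 and 524 FPKM in the epithelia, 106, 4.43 and 7.38 in bile duct organoids and 21.1, 30.1 and 14.0 in pancreatic duct organoids. Iigp1, an immunity related GTPase like Igtp, had 103 and 75.4 FPKM in the epithelia and at most 0.237 in an organoid. Ifi27l2a, a relative of Ifi27, had 296 and 327 FPKM in the epithelia and at most 1.58 in an organoid. Lgals3bp, a secreted glycoprotein, had 109 and 58.7 FPKM in the epithelia and 43.6 to 97.1 in the organoids. Between the organoid groups, 0 of the 25 tested passed the limma threshold, with 0 at an unadjusted p under 0.05, against 0.0% and 2.52% of genes tested.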

How the data were processed

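Values are FPKM as deposited by the authors, in 1 table with 1 column per library. No header names the unit, which was read from the values. The submitters' processing notes name Bowtie2 2.2.3, HISAT2 2.1.0, TopHat2 and HTSeq 0.6.0, without their roles. FPKM times exon length (GENCODE) gave whole reads within 0.05 in all libraries for 28267 genes (90.5%), 35 members among them, and implied 12876471 and 15455991 reads for the epithelia and 15405377 to 20828216 for the organoids. Coordinates of genes were taken from that table and are in GRCm38. In the closest pair of organoid libraries, chi-square per degree of freedom of the read numbers was 17.5, above counting error, and repeat preparations of 1 culture cannot be told from separate cultures.

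Scaling used a trimmed mean of log ratios (30% and 5% trimmed, genes with at least 1 FPKM in any library), over 6 organoids or all 8 libraries. Organoid groups were compared with limma 3.58.1 (R 4.3.3) with a trend, after a filter of 1 FPKM in at least 3 organoids. Comparisons with an epithelium used a filter of 1 FPKM on either side and a 2-fold rule. Scripts used Python 3.11.15, numpy 2.4.6, pandas 2.3.3 and matplotlib 3.10.9, and the test was checked on simulated data. Members described with coordinates are the 27 that reached 10 FPKM in a library, the others being named under their role. Members and lists were chosen with earlier results of these data known.

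The design had assumed read counts. Because the deposited unit is FPKM, the limma fit took that place. Alternatives covered scaling, pseudocount, filter, test, replicate block and leaving out each organoid. A gene of the signal carrier list is not reported here.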

Additional observations from a re-analysis of the deposited data

Results flagged for a closer look

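Among the interferon genes examined, Trim14 and Ifit1bl1 are listed because all 3 bile duct organoids lay below bile duct epithelium and all 3 pancreatic duct organoids lay above pancreatic duct epithelium on scaled values. Trim14, an adaptor of the antiviral response, had 1.90 and 0.925 FPKM in the epithelia of bile and pancreatic duct, 1.99, 1.35 and 1.57 in bile duct organoids and 1.33, 1.62 and 1.49 in pancreatic duct organoids. After scaling, its difference from epithelium was -0.32 ± 0.21 in bile duct and 0.21 ± 0.09 in pancreatic duct (SD, n = 3, log2), a gap of -0.53 between the organs. For Trim14, bile duct organoid 1 lay below its epithelium only after scaling, at -0.09, and above it as deposited. Ifit1bl1, a relative of Ifit1, had 10.9 and 0.512 FPKM in the epithelia, 2.29, 0.0880 and 0.0239 in bile duct organoids and 1.74, 4.70 and 0.823 in pancreatic duct organoids. Its difference was -3.13 ± 0.95 in bile duct and 0.90 ± 0.85 in pancreatic duct, a gap of -4.03. With 1 library per epithelium, neither gap was tested. None of the 37 members met this rule.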

How the results depend on the processing

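Of 150 alternative values, 141 counted as unchanged. For the difference of a single gene this meant the same sign and the same side of the threshold. For counts, SDs and the median difference it meant staying within a set margin of the main value. Leaving out each organoid in turn moved the median member difference between organoid groups from -0.29 (without bile duct organoid 1) to 0.33, the median member SD from 0.29 (without the same culture) to 0.56, and the Isg15 difference from -0.77 to 0.72. Isg15 was also reversed with a pseudocount of 0.1 (-0.15) and with voom (-0.32). The pseudocount of 0.1 raised the median SD to 1.06, and gave 4 members higher and 1 lower in bile duct than in pancreatic duct epithelium. Members lower in bile duct organoids numbered 23 of 24 with a floor of 10 FPKM, where fewer genes pass. The cause of the other shifts was not tested.

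The labels do not say whether same-numbered organoids belong together. Deviations of such pairs correlated at -0.11, -0.44 and 0.48, and so few pairs cannot decide the question. A fit with this number as a replicate block also called 0 members. Without pancreatic duct organoid 3, 11 genes of the whole table were called with limma and no member. The fit with neither filter nor bile duct organoid 1, chosen after seeing the data, called 30 genes and no member. Depth limits members at 3 reads or fewer, which numbered 6 in each of bile duct organoids 2 and 3 and at most 2 in the other libraries.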
